A study of Mus musculus with 28 samples.

Results

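The Hippo kinase core was followed through mouse lung epithelium by 8 genes, picked by name for their place in the pathway: Stk3, Stk4, Sav1, Lats1, Lats2, Mob1a, Mob1b and Nf2. All 8 had a row in both gene tables, out of 23478 rows in each, and all 8 passed the filter on low counts. They lie on chromosomes 15 (Stk3), 2 (Stk4), 12 (Sav1), 10 (Lats1), 14 (Lats2), 6 (Mob1a), 5 (Mob1b) and 11 (Nf2), and span 16.8 kb (Mob1a) to 280.4 kb (Stk3) in GRCm38.p6. The study's title asks how YAP directs the differentiation of alveolar epithelial cells. It profiled RNA in 19 libraries and open chromatin by ATAC-seq in 9, from lung cells taken at postnatal day 14 after recombination at postnatal day 3. Cells were depleted with antibodies against CD31, CD271, CD90.2, Ter119, CD16/32 and CD45, and CD326 (EPCAM) positive cells were kept, a selection that takes in other lung epithelium besides alveolar type 2 (AT2) cells.

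Yap active libraries had the genotype Stk3flox/flox/Stk4flox/flox SftpcCreert2 (6 RNA, 3 ATAC), and their controls were Stk3flox/flox/Stk4flox/flox without Cre (4 RNA, 3 ATAC). Yap deleted libraries had the genotype Yapflox/flox SftpcCreert2 (5 RNA, 2 ATAC), and their controls were Yapflox/flox without Cre (4 RNA, 1 ATAC). The 2 genes targeted in the Yap active line, Stk3 and Stk4, are thus themselves core genes, while in the Yap deleted line every core gene is intact and the targeted gene, Yap1, lies below them. The Cre is driven by Sftpc, the surfactant gene that marks AT2 cells, so other epithelial cells in a sort may keep their floxed alleles whole. The controls carry the same floxed alleles, and no group without them is analysed here. Nothing in the labels ties a library to its own animal, and p-values therefore measure only the spread between these samples, which may be technical.

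The core works as a kinase cascade. MST1 and MST2, the products of Stk4 and Stk3, bind the scaffold SAV1 and phosphorylate the kinases LATS1 and LATS2 and their co-activators MOB1A and MOB1B, while merlin, the product of Nf2, brings LATS to the membrane where it is activated. Active LATS phosphorylates YAP and its relative TAZ (Wwtr1), which are then held in the cytoplasm or degraded. YAP free of this control enters the nucleus, binds TEAD factors and drives growth genes, and LATS2 and NF2 have been described as YAP targets that feed back on the pathway. In the alveolus the pathway is known for its part in the choice between AT2 cells and the thin alveolar type 1 cells.

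RNA libraries held 31.9 to 43.5 M counts. Levels are given as CPM, a gene's counts relative to the size of its library after one TMM scaling over all 19, so a gene can be followed between libraries, but levels of different genes are not comparable because CPM is not corrected for length. Esr1, the gene of the receptor that the ERT2 part of the Cre driver is derived from, went against the label in 3 libraries. It stood at 2.03 CPM in the library labelled Yap active 1 against 213 to 333 CPM in the other 5 Yap active libraries, at 165 CPM in active control 2 against 0.963 to 3.32 CPM in the other active controls, and at 82.4 CPM in deleted control 2 against 0.929 to 3.93 CPM in the other deleted controls. A first principal component, computed without the 8 core genes, took 64.9% of the variance in the Yap active table and 62.6% in the Yap deleted table. It set Yap active 1 and active controls 1, 2 and 3 (its positive end) apart from Yap active 2 to 6 and active control 4, and deleted controls 1 and 2 (positive end) apart from the other 7 libraries. Summed AT2 markers, all 8 detected in every library, were 37960 to 57609 CPM at the positive end and 79606 to 131996 CPM at the negative end of the Yap active table. Sftpc, the largest part of the sum at the negative end, had 11590 to 18834 CPM at the positive end and 35878 to 83234 CPM at the negative end. Sftpb, Abca3 and Napsa also separated the ends, while Sftpa1, Lamp3, Slc34a2 and Lpcat1 overlapped. Fibroblast markers ran from 5087 to 11385 CPM at that positive end and from 1182 to 6035 CPM at the negative end. Other marker sums set these ends apart without overlap. Club cell markers had 3563 to 5103 CPM at the positive end and 11070 to 19104 CPM at the negative end. General lung epithelium markers had 3292 to 4406 and 4871 to 5871 CPM, and mesothelial markers 585 to 934 and 107 to 384 CPM, in the same order. Sums of alveolar type 1, endothelial, leukocyte and ciliated cell markers overlapped. In deleted controls 1 and 2, endothelial markers summed to 1604 to 1949 CPM, against 99.5 to 162 CPM in the other 7 libraries of that table. No label names a batch, and with few libraries of each group at each end, the ends and the genotypes are partly confounded. In bulk samples, fewer cells of a type and less RNA per cell cannot be told apart.

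Stk3, one of the 2 targeted kinases, was lower on average in Yap active cells, but the difference followed the ends of component 1 and not the genotype labels alone. Counts over a whole gene include exons outside a floxed stretch, so they check a deletion only in part. Stk3 had 31.7 CPM at the lowest, 33.9 at the median and 51.1 CPM at the highest in the 6 Yap active libraries, against 55.9, 51.7, 56.6 and 34.0 CPM in active controls 1 to 4. The high Yap active value was library 1 and the low control value was library 4, so the groups overlapped. At the negative end of component 1, Yap active 2 to 6 held 31.7 to 35.6 CPM and active control 4 held 34.0 CPM. At the positive end, Yap active 1 held 51.1 CPM and active controls 1 to 3 held 51.7 to 56.6 CPM. Within either end, then, Yap active and control libraries lay within a few CPM of each other. Each end, however, holds only 1 library of one of the groups, active control 4 or Yap active 1. At the positive end Esr1 also went against the label, with 2.03 CPM in Yap active 1 and 165 CPM in active control 2. These values therefore do not show whether Stk3 differs by genotype within an end. The group means were 36.4 ± 7.31 CPM in Yap active cells and 49.5 ± 10.6 CPM in controls (SD, n = 6 and 4), a log2 fold change of -0.42 ± 0.17 (SE) with an adjusted p of 0.366 by edgeR's quasi-likelihood test with Benjamini-Hochberg adjustment.

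Stk4, the other targeted kinase, was also lower on average in Yap active cells, in a difference that did not pass the test. It had 79.1 CPM at the lowest, 90.6 at the median and 128 CPM at the highest in Yap active libraries, against 108, 109, 116 and 119.9 CPM in active controls 1 to 4. All Yap active libraries but number 1 lay below every control, and number 1 was the highest of the 10. At the negative end, Yap active 2 to 6 held 79.1 to 93.5 CPM and the 1 control there, number 4, held 119.9 CPM. At the positive end the order was the other way, with 128 CPM in Yap active 1 and 108 to 116 CPM in active controls 1 to 3. The log2 fold change was -0.25 ± 0.13 (adjusted p = 0.366). With the end of component 1 as a covariate it was -0.15 ± 0.13, a fit in which the negative end holds 1 control and the positive end 1 Yap active library. Without Yap active 1 and active control 2, the libraries of this table whose Esr1 went against the label, the value was -0.38 ± 0.10 for Stk4 and -0.52 ± 0.16 for Stk3 (adjusted p = 0.122 for each). Whether the 2 kinases differ in their change was not tested.

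**Figure D1:**
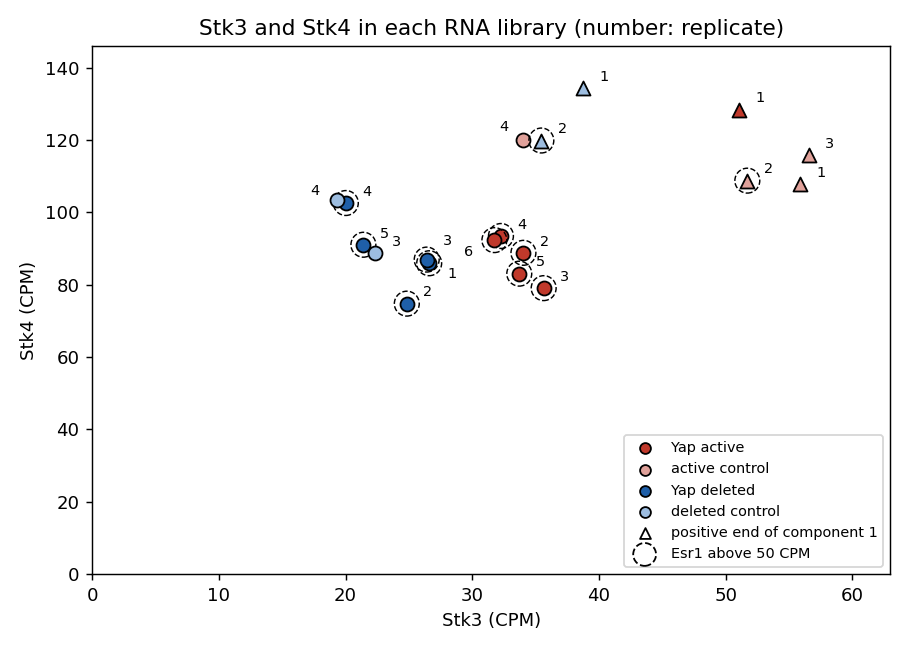
Stk3 (horizontal axis) against Stk4 (vertical axis) in CPM for each of the 19 RNA libraries. Colour gives the group, the number the replicate, a triangle the positive end of component 1 and a dashed ring Esr1 above 50 CPM. Yap active 2 to 6 form one cloud at 31.7 to 35.6 CPM of Stk3, active control 4 has the same Stk3 but a higher Stk4 (119.9 CPM), and Yap active 1 stands with active controls 1 to 3.

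Sav1, the scaffold that holds MST next to LATS, had 67.5 CPM at the lowest, 72.6 at the median and 90.1 CPM at the highest in Yap active libraries, against 90.9, 89.0, 88.7 and 67.1 CPM in active controls 1 to 4. The groups overlapped fully, with active control 4 the lowest of the 10 libraries and Yap active 1 the second highest. Its log2 fold change was -0.14 ± 0.12 (adjusted p = 0.476).

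The LATS kinases, which phosphorylate YAP directly, had the same layout. Lats1 had 103 CPM at the lowest, 108 at the median and 165 CPM at the highest in Yap active libraries, against 130.3, 142, 151 and 118 CPM in active controls 1 to 4. Lats2 had 69.6 CPM at the lowest, 93.0 at the median and 166 CPM at the highest in Yap active libraries, against 135, 100.4, 142 and 100.4 CPM in the controls. For both genes Yap active 1 was the highest of all 19 libraries, and among Yap active 2 to 6 only library 4, for Lats1, exceeded any control. The log2 fold change was -0.17 ± 0.14 for Lats1 (adjusted p = 0.482) and -0.21 ± 0.22 for Lats2 (adjusted p = 0.565). Without Yap active 1 alone, the Lats2 value was -0.40, and with the end of component 1 as a covariate it was 0.094, so neither its size nor its sign held across settings.

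The MOB1 adaptors, which bind and activate LATS, differed least. Mob1a had 39.1 CPM at the lowest, 41.5 at the median and 54.1 CPM at the highest in Yap active libraries, against 47.2, 43.4, 50.1 and 46.9 CPM in active controls 1 to 4, a log2 fold change of -0.081 ± 0.11 (adjusted p = 0.667). Mob1b had 51.0 CPM at the lowest, 57.9 at the median and 72.6 CPM at the highest, against 52.9, 66.1, 68.3 and 65.4 CPM in the controls, a log2 fold change of -0.045 ± 0.13 (adjusted p = 0.848) that came to 0.0043 without Yap active 3. For both genes the control range lay inside the Yap active range. They encode nearly identical proteins, and the sources used here do not say how reads that match both were assigned.

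Nf2 (merlin), the membrane protein upstream of LATS, was the one core gene with a positive value. It had 106 CPM at the lowest, 117 at the median and 134 CPM at the highest in Yap active libraries, against 99.9, 116, 105 and 105 CPM in active controls 1 to 4. Active control 2 lay inside the Yap active range and the other 3 controls lay below every Yap active library. The margin was narrow, with 105.388 CPM in active control 3 and 105.55 CPM in Yap active 1. The log2 fold change was 0.16 ± 0.10 (adjusted p = 0.400), and it stayed positive with the end of component 1 as a covariate (0.083 ± 0.11).

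**Figure D2:**
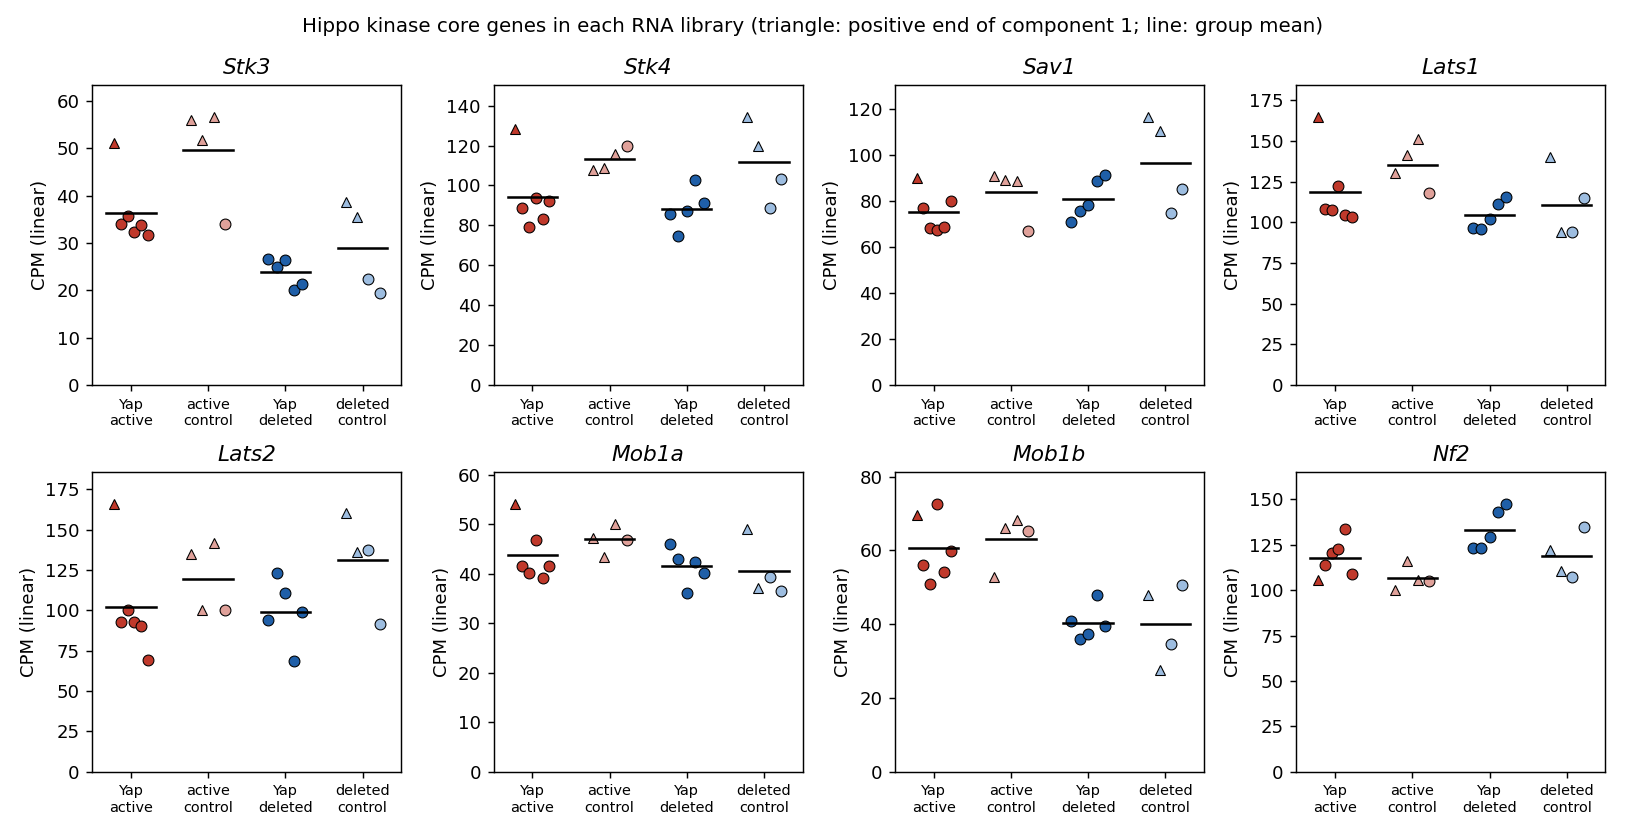
CPM (linear vertical axis from 0) of the 8 core genes in each RNA library, by group. A point is a library, a triangle marks the positive end of component 1, and the black line is the group mean. For Stk3, Sav1, Lats1 and Lats2 every triangle of the Yap active table lies above every circle of it, and Mob1b is higher in all 10 libraries of that table than in all 9 of the other.

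Counted together, 0 of the 8 core genes passed an adjusted p under 0.05 between Yap active cells and controls, and 0% of the 15685 genes tested did. At an unadjusted p under 0.05 the test passed 1 of the 8 (Stk3, lower), against 12.6% of all genes. Of the 8, 7 had a negative log2 fold change, with a median of -0.16, where 50.6% of all genes were negative and their median was -0.0054. In 0 of 8 did the 6 Yap active libraries and the 4 controls separate without overlap, against 0.427% of genes that separated with Yap active lower and 0.561% with Yap active higher. The split along component 1 separated many of all genes without overlap, in either direction, and some core genes were among them. Stk3, Sav1, Lats1 and Lats2 were higher in all 4 libraries of the positive end than in all 6 of the negative end. Lats2 did so by the narrowest margin (100.433 CPM in active control 2 and 100.414 CPM in active control 4). These 4 of 8 stand beside 19.4% of all genes that were higher at that end without overlap and 20.2% that were lower. With the end of component 1 as a covariate the 8 values lay between -0.15 (Stk4) and 0.094 (Lats2). DESeq2 called 0 core genes and 0.129% of genes. A limma-voom fit with sample weights called 6 core genes, Stk3 (-0.64), Stk4 (-0.34), Sav1 (-0.27), Lats1 (-0.32) and Lats2 (-0.46) lower and Nf2 (0.24) higher, in a fit that called 56.6% of all genes. That fit gave Yap active 1 a weight of 0.183 and active control 4 a weight of 0.200, against 0.690 to 2.58 for the other 8 libraries.

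**Figure D3:**
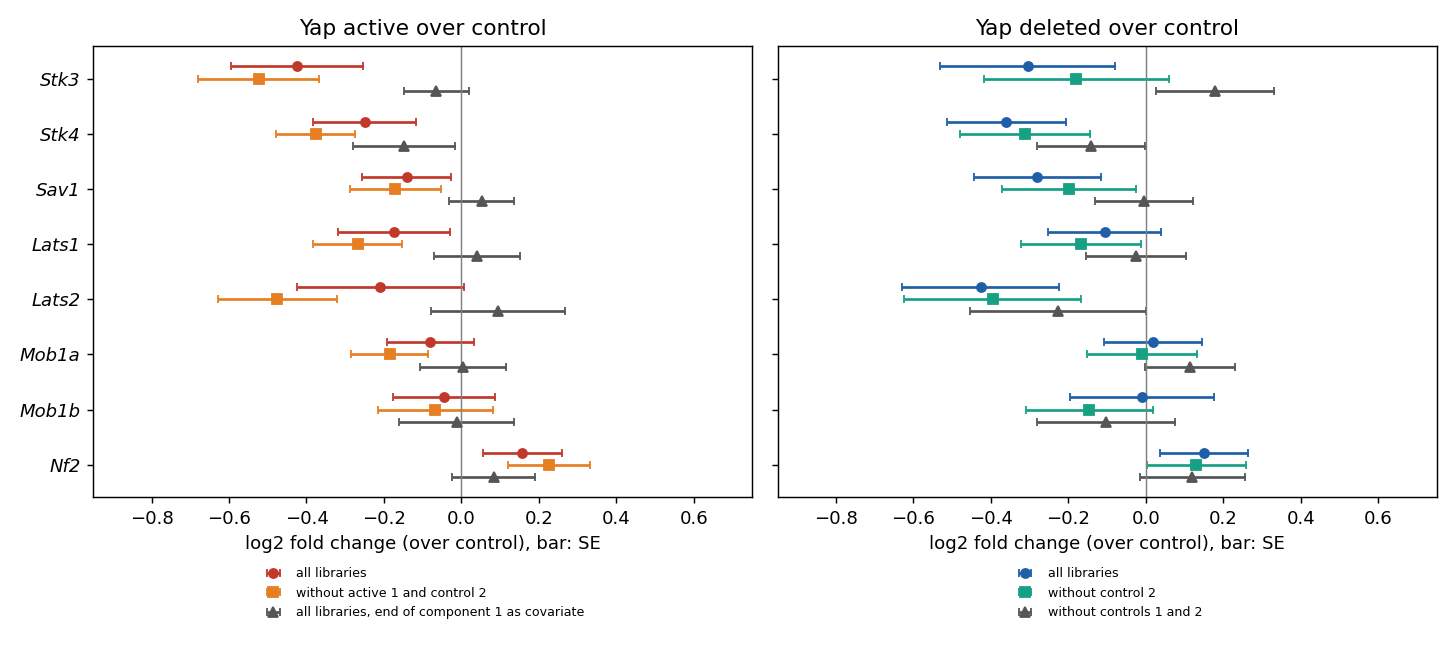
Log2 fold change over control (horizontal axis; bars are standard errors) of each core gene in the Yap active line (left) and the Yap deleted line (right). Circles are all libraries, squares leave out the libraries whose Esr1 went against the label, and triangles use all libraries with the end of component 1 as a covariate (left) or leave out deleted controls 1 and 2 (right). For Stk3 the circle lies at -0.42 and the triangle at -0.065 in the Yap active line, and at -0.31 and 0.18 in the Yap deleted line.

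In the Yap deleted line the targeted gene was lower in most but not all pairings of libraries. Yap1 had 77.1, 138, 101, 82.6 and 93.8 CPM in Yap deleted libraries 1 to 5, against 205, 112, 169 and 183 CPM in deleted controls 1 to 4. Deleted library 2 lay above deleted control 2, and no other pair overlapped. The log2 fold change was -0.78 ± 0.22 (adjusted p = 0.247). Wwtr1, the gene of the YAP relative TAZ, had 143, 149, 134, 113 and 136 CPM in Yap deleted cells, against 205, 145, 167 and 139 CPM in controls (-0.30 ± 0.14, adjusted p = 0.346).

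Here the kinase genes carry no floxed allele, and Stk3 and Stk4 served as intact genes. Stk3 had 26.6, 24.8, 26.4, 20.0 and 21.4 CPM in Yap deleted libraries 1 to 5, against 38.7, 35.4, 22.3 and 19.3 CPM in deleted controls 1 to 4. Controls 1 and 2 were above every Yap deleted library, and controls 3 and 4 lay among or below them. The log2 fold change was -0.31 ± 0.23 (adjusted p = 0.517), and without controls 1 and 2 it was 0.18 ± 0.15. Stk4 had 85.9, 74.8, 87.0, 103 and 91.1 CPM in Yap deleted cells, against 134, 119.9, 88.7 and 103 CPM in controls. Controls 1, 2 and 4 lay above all 5 Yap deleted libraries, number 4 by less than 1 CPM, and control 3 lay among them. The log2 fold change of Stk4 was -0.36 ± 0.15 (adjusted p = 0.317), the lowest unadjusted p of the 8 in this line, and -0.14 ± 0.14 without controls 1 and 2.

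The same 2 controls set the layout of Sav1. It had 70.7, 75.5, 78.3, 88.6 and 91.0 CPM in Yap deleted cells, against 116, 110.2, 74.8 and 85.01 CPM in controls (-0.28 ± 0.16, adjusted p = 0.426, and -0.0048 without controls 1 and 2). Lats1 had 96.3, 95.9, 102, 112 and 116 CPM in Yap deleted cells, against 139.9, 94.2, 94.1 and 115 CPM in controls. Only control 1 stood outside the Yap deleted range of Lats1 on the high side, and the log2 fold change of -0.11 ± 0.15 (adjusted p = 0.715) was 0.035 without that library. Lats2 had 94.0, 123, 111, 68.9 and 99.1 CPM in Yap deleted cells, against 160.1, 136, 138 and 91.7 CPM in controls. Its controls 1 to 3 were above all 5 Yap deleted libraries and control 4 was below 4 of them, with the log2 fold change at -0.43 ± 0.20 (adjusted p = 0.348). The fit without controls 1 and 2 gave Lats2 -0.23 ± 0.23.

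For the adaptors and merlin the groups lay closer. Mob1a had 46.0, 43.0, 36.0, 42.3 and 40.1 CPM in Yap deleted cells, against 49.0, 37.1, 39.4 and 36.4 CPM in controls (0.018 ± 0.13, adjusted p = 0.951). Leaving out single libraries moved its value between -0.061 and 0.13, with the sign turned in 7 of 9 cases. Mob1b had 41.0, 36.1, 37.4, 47.8 and 39.5 CPM in Yap deleted cells, against 47.9, 27.5, 34.6 and 50.7 CPM in controls (-0.010 ± 0.19, adjusted p = 0.983, and -0.15 to 0.095 when single libraries were left out). For Mob1a 3 of the 4 controls lay inside the Yap deleted range, and Mob1b had controls on either side of it. Nf2 had 123, 123, 129, 143 and 148 CPM in Yap deleted cells, against 122, 111, 107 and 135 CPM in controls. Controls 1 to 3 lay below all 5 Yap deleted libraries and control 4 lay among them, with a log2 fold change of 0.15 ± 0.11 (adjusted p = 0.523).

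Of the 8 core genes, 0 passed an adjusted p under 0.05 between Yap deleted cells and controls, against 0.00632% of the 15818 genes tested. The 1 gene behind that share was Trim12a (2.76 ± 0.26, adjusted p = 0.0243), named here after its value was seen. At an unadjusted p under 0.05 the test passed 1 of the 8 (Stk4, lower), against 15.3% of all genes. Of the 8, 6 had a negative log2 fold change, with a median of -0.19, where 49.0% of all genes were negative and their median was 0.0098. In 0 of 8 did the groups separate, against 1.2% of genes that separated with Yap deleted lower and 2.62% with Yap deleted higher. Deleted controls 1 and 2 were above the other 7 libraries for Stk3, Stk4 and Sav1, which is 3 of 8, beside 22.1% of all genes above and 28.1% below. DESeq2 called 0 core genes against 5.01% of genes, and limma-voom called 0 against 0%.

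The change of each core gene was set against its change in the other line in one model of all 19 libraries. The difference, Yap active change minus Yap deleted change, lay between -0.13 ± 0.29 (Stk3) and 0.21 ± 0.31 (Lats2) on the log2 scale, with adjusted p-values of 0.917 to 0.999. Of the 8, 0 passed an adjusted p under 0.05, against 0% of 16308 genes. At an unadjusted p under 0.05 the test passed 0 of the 8, against 6.47% of genes. DESeq2 called 0.113% of genes and limma-voom 0.129%, with 0 core genes in either. For Stk3, the gene floxed in one line and intact in the other, the difference was -0.33 without the 3 libraries whose Esr1 went against the label, and -0.73 when deleted control 1 was left out as well (adjusted p = 0.802 and 0.190). Yap1, the gene targeted in the Yap deleted line, had a difference of 0.65 ± 0.24 (adjusted p = 0.732).

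Between the lines as a whole, Mob1b stood out among the 8. Its lowest value in the 10 libraries of the Yap active line, 51.0 CPM, was above its highest in the 9 libraries of the Yap deleted line, 50.7 CPM. It was the 1 core gene of 8 for which this held, against 0.336% of 15454 genes, while 0.175% were lower in every library of the Yap active line. Over groups, Mob1b averaged 60.6 ± 8.76 CPM in Yap active cells, 63.2 ± 6.97 CPM in their controls, 40.4 ± 4.57 CPM in Yap deleted cells and 40.2 ± 10.97 CPM in theirs (SD, n = 6, 4, 5 and 4). The difference was thus between lines and present in the controls, where floxed alleles, strain background and the 2 tables cannot be told apart. Stk3 averaged 36.4 ± 7.31, 49.5 ± 10.6, 23.8 ± 2.99 and 29.0 ± 9.55 CPM in the same order of groups, and only Yap deleted controls 1 and 2 reached the levels of the other line. Its range over all 19 libraries, 2.93-fold, was the widest of the 8, and that of Nf2, 1.48-fold, the narrowest.

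The balance within each paralog pair was read from raw counts, as the share of a pair's counts held by one gene. Stk3 held 27.9 ± 2.08% of the Stk3 and Stk4 counts in Yap active cells and 30.3 ± 5.54% in controls (SD, n = 6 and 4). In single libraries the share ran from 25.6% to 31.1% in Yap active cells and from 22.1% to 34.1% in controls, the control at 22.1% (21.0% to 23.2%, exact 95% binomial interval, counting error only) being number 4. With targeting of both genes the balance between them overlapped with that of the controls. In the Yap deleted line the Stk3 share was 21.4 ± 3.62% in Yap deleted cells and 20.3 ± 3.24% in controls (n = 5 and 4). Lats1 held 54.3 ± 3.54% of the LATS counts in Yap active cells and 53.3 ± 4.01% in controls, and 51.6 ± 6.79% in Yap deleted cells and 45.9 ± 7.05% in controls. Mob1a held 42.0 ± 1.78% of the MOB1 counts in Yap active cells and 42.7 ± 3.19% in controls, and 50.7 ± 2.96% in Yap deleted cells and 50.8 ± 6.61% in controls. For each pair and line the ranges of the 2 groups overlapped. These shares depend on transcript length as well as on abundance, so they compare libraries and not the 2 genes of a pair.

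Core genes were also compared with all 11894 genes of at least 4 CPM on average in both tables, by the root mean square difference of their log2 CPM deviations from each table's own mean over the 19 libraries. A value of 0 would be an identical profile. The nearest profile to Stk3 was that of Tardbp, an RNA-binding protein gene, at 0.0916, followed by Cops2 and Zfp326, against a median of 0.475 over all genes. Zdhhc21, Sec24a and Rsf1 lay nearest to Stk4 (0.107 to 0.109). For Sav1 they were Tax1bp1, Capn7 and Rnf115 (0.0783 to 0.0908). Lats1 had Strn, the gene of the STRIPAK scaffold striatin, as its nearest at 0.0764, then Aff4 and Wapal. Klc1, Arhgef10 and Fbxl7 were nearest to Lats2, at the largest distances of the 8 (0.141 to 0.156). Mob1a had Cpne3, Rbm26 and Zbtb11, Mob1b had Btbd7, Hook1 and Ncoa6, and Nf2 had Uap1, Nbas and Sik3. Core genes were not each other's nearest. Seen from Lats2, Stk3 ranked 129 of 11894, and seen from Sav1, Stk4 ranked 343. Among paralogs, Stk4 ranked 1543 seen from Stk3, Mob1b 1376 seen from Mob1a and Lats2 3917 seen from Lats1. Each paralog was thus nearer than most of the 11894 genes, but many other genes lay nearer still. The points share library, depth and the split along component 1.

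The wider pathway was read from lists of known Hippo genes, chosen by function. In each list and line, the 2 genes of largest log2 fold change at 4 CPM or more are named. Of 10 upstream kinases that can act beside MST (TAOK and MAP4K families), 0 passed the adjusted threshold in either line, and their median log2 fold change was -0.16 in Yap active and -0.32 in Yap deleted cells. Tnik, a kinase of the MAP4K group, averaged 7.55 CPM in Yap active cells and 14.03 CPM in controls (-0.87 ± 0.37, adjusted p = 0.366), and Taok1, which phosphorylates MST, averaged 126 CPM in Yap active cells and 169 CPM in controls (-0.41 ± 0.20, adjusted p = 0.366). Both were higher in every library of the positive end than in any of the negative end. Taok1 had 203 CPM in Yap active 1 and 172 to 199.7 CPM in active controls 1 to 3, beside 99.3 to 129.6 CPM in Yap active 2 to 6 and 128 CPM in active control 4. Map4k2, a MAP4K gene, had -0.58 ± 0.25 in Yap deleted cells (adjusted p = 0.321) and Taok1 -0.43 ± 0.24 (adjusted p = 0.402), each highest in deleted controls 1 and 2.

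The ends of component 1 set apart many genes of the lists, as they did many of all genes. Of the 16 genes so named in the Yap active line, 9 separated the ends of component 1 without overlap (all genes: 19.4% higher and 20.2% lower at the positive end), while 1, Ajuba, separated Yap active cells from controls. Deleted controls 1 and 2 stood above or below the other 7 libraries in 10 of the 15 genes named (all genes: 22.1% above and 28.1% below), and 1, Limd1, separated Yap deleted cells from controls. These genes were picked for their size of change, so the counts are a description. The part of cell makeup in these values was not tested.

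Of 18 scaffold and polarity genes 0 passed, with medians of 0.081 in Yap active and -0.17 in Yap deleted cells. Crb3, an apical polarity gene, had 0.70 ± 0.33 in Yap active cells (adjusted p = 0.366), and Fat4, an atypical cadherin, had -0.76 ± 0.60 (adjusted p = 0.465). Crb3 had 107 to 127 CPM in Yap active 2 to 6 and 117 CPM in active control 4, beside 52.8 CPM in Yap active 1 and 41.4 to 60.5 CPM in active controls 1 to 3. Fat4 had 56.8 CPM in Yap active 1 and 20.8 to 56.5 CPM in active controls 1 to 3, beside 7.87 to 22.6 CPM in Yap active 2 to 6 and 14.6 CPM in active control 4. For both genes active control 4 thus lay among Yap active 2 to 6. Mpp5, which encodes the CRB3 partner PALS1, averaged 48.4 CPM in Yap deleted cells and 72.8 CPM in controls (-0.60 ± 0.17, adjusted p = 0.247), with control 2, at 49.4 CPM, inside the Yap deleted range. Amot, the gene of the YAP-binding protein angiomotin, had -0.63 ± 0.35 in that line (adjusted p = 0.412) and was highest in deleted controls 1 and 2.

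Of the 6 RASSF genes, whose products bind MST kinases, 0 passed, with medians of 0.048 in Yap active and -0.42 in Yap deleted cells. Rassf1 had 0.31 ± 0.18 and Rassf5 -0.31 ± 0.33 in Yap active cells, and each separated the ends of component 1, Rassf1 lower and Rassf5 higher at the positive end. Rassf4 averaged 12.3 CPM in Yap deleted cells and 32.8 CPM in controls (-1.45 ± 0.47, adjusted p = 0.255), and Rassf5 averaged 11.5 CPM in Yap deleted cells and 30.2 CPM in controls (-1.43 ± 0.56, adjusted p = 0.295). Both were highest in deleted controls 1 and 2, at 31.2 and 61.98 CPM for Rassf4 and at 31.4 and 66.1 CPM for Rassf5, the libraries in which leukocyte markers also summed highest (252 to 1003 CPM, against 12.05 to 171 CPM in the other 7). The part of leukocyte RNA in these values was not tested.

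STRIPAK and PP2A genes, which dephosphorylate MST, passed in 0 of 13 cases, with medians of -0.048 in Yap active and -0.14 in Yap deleted cells. Ppp2r1a, the PP2A scaffold subunit, averaged 196 CPM in Yap active cells and 147 CPM in controls (0.44 ± 0.22, adjusted p = 0.366), and Slmap, the link of STRIPAK to MST, averaged 80.7 CPM in Yap active cells and 107 CPM in controls (-0.38 ± 0.21, adjusted p = 0.367). Both followed the ends. Ppp2r1a had 124 CPM in Yap active 1 and 115 to 142 CPM in active controls 1 to 3, beside 200.3 to 222 CPM in Yap active 2 to 6 and 208 CPM in active control 4. Slmap had 128 CPM in Yap active 1 and 115 to 123 CPM in active controls 1 to 3, beside 62.6 to 78.2 CPM in Yap active 2 to 6 and 71.4 CPM in active control 4. Mob4, a STRIPAK subunit, had -0.50 ± 0.22 in Yap deleted cells and the kinase gene Stk24 -0.37 ± 0.18 (adjusted p = 0.322 and 0.351), each highest in deleted controls 1 and 2.

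LATS inhibitors of the Ajuba family and NDR genes passed in 0 of 9 cases, with medians of 0.13 in Yap active and -0.13 in Yap deleted cells. Ajuba itself had opposite signs in the 2 lines, 89.3 CPM in Yap active cells and 73.4 CPM in controls (0.30 ± 0.12, adjusted p = 0.366), and 51.7 CPM in Yap deleted cells and 89.4 CPM in controls (-0.80 ± 0.28, adjusted p = 0.271). Every Yap active library lay above every control for Ajuba, by 82.9 CPM against 82.3 CPM at the closest. The difference of the 2 changes was 1.10 ± 0.31 for Ajuba (adjusted p = 0.696). Wtip, of the same family, had 0.27 ± 0.12 in Yap active cells (adjusted p = 0.366), and Limd1, the third of it, averaged 232 CPM in Yap deleted cells and 183 CPM in controls (0.33 ± 0.12, adjusted p = 0.270), with no overlap between the groups.

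Genes for YAP degradation and 14-3-3 binding passed in 0 of 11 cases, with medians of 0.16 in Yap active and 0.046 in Yap deleted cells. The 14-3-3 genes Sfn (0.77 ± 0.38) and Ywhae (0.36 ± 0.20) had the largest values in Yap active cells (adjusted p = 0.366 each), Ywhae being lower at the positive end in every library. Csnk1e, a casein kinase gene, had -0.40 ± 0.13 in Yap deleted cells and Ywhag, a 14-3-3 gene, 0.34 ± 0.13 (adjusted p = 0.257 and 0.297), with deleted controls 1 and 2 at the top for Csnk1e and at the bottom for Ywhag.

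The effector list (Yap1, Wwtr1, Vgll4 and the TEAD genes) passed in 0 of 7 cases, with medians of -0.12 in Yap active and -0.32 in Yap deleted cells. The TEAD genes Tead4 (0.31 ± 0.22) and Tead2 (-0.26 ± 0.31) had the largest values in Yap active cells, and Tead4 averaged 10.3 CPM in Yap deleted cells and 16.9 CPM in controls (-0.72 ± 0.29, adjusted p = 0.306). Of 13 YAP target genes other than the core genes Lats2 and Nf2, 0 passed. In Yap active cells 6 of the 13 were lower, against 50.6% of all genes, and in Yap deleted cells 12 of the 13, against 49.0%. Their medians were 0.038 in Yap active and -0.46 in Yap deleted cells, against -0.0054 and 0.0098 over all genes. The part of deleted controls 1 and 2 in the lower values of the Yap deleted line was not tested. Birc5, a survival and cell division gene, had 0.995 ± 0.84 in Yap active cells and Foxf2, a forkhead factor gene, -0.77 ± 0.58 (adjusted p = 0.490 and 0.451). Axl, a receptor kinase gene, averaged 51.3 CPM in Yap deleted cells and 99.9 CPM in controls (-0.99 ± 0.35, adjusted p = 0.273). The Yap deleted libraries held 38.2 to 62.3 CPM of Axl, against 114 and 167 CPM in deleted controls 1 and 2 and 49.0 and 69.4 CPM in controls 3 and 4. Control 3 thus lay inside the Yap deleted range of Axl and control 4 just above it.

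Chromatin data touched 3 of the 8 core genes. The authors' lists give, per line, the regions called more open or more closed than in controls, each with a score whose scale is not stated and with the nearest gene. They hold one value per region and no replicates, so they allow no test here. In the list of 6017 regions opened in Yap active cells, 4 carried the name of a core gene: 2 at Mob1b, 1 at Stk3 and 1 at Lats2. That is 3 of 8 genes, where 19.3% of all genes in the count tables were named in that list. Of the 8, 0 were named among the 1392 regions closed in Yap active cells (4.98% of genes), the 532 opened in Yap deleted cells (2.04%) or the 676 closed there (2.41%).

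The highest-scoring of these lay at the start of Mob1b, at chr5:88720089-88722322 (mm10), in intron 1 of 5 of NM_026735 with its centre 334 bp inside the gene. Its score of 117 (117.25) ranked 818 of 6017, above 86.4% of the list and above the list's median of 42.8. The second Mob1b region, chr5:88710548-88711982, was intergenic, upstream of the start at -9606 bp, with a score of 67.7 (rank 1891). The Stk3 region, chr15:35183100-35184180, was intergenic and 27.8 kb upstream of the start, with a score of 41.2 (rank 3105), near the list's median. The Lats2 region, chr14:57729901-57730719, lay in intron 1 of 1 of the short transcript NM_153382, 4.11 kb inside it, with a score of 16.7 (rank 5399), above 10.04% of the list. The RNA of these 3 genes did not pass the test in Yap active cells (log2 fold changes of -0.045 for Mob1b, -0.42 for Stk3 and -0.21 for Lats2).

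**Figure D4:**
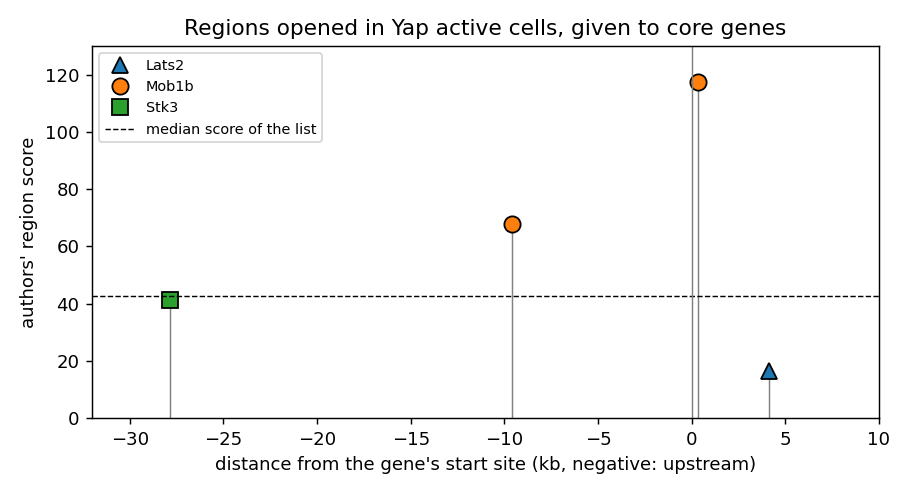
The 4 regions opened in Yap active cells that the authors' annotation gives to core genes, by distance from the gene's start site (horizontal axis, kb, upstream negative) and the authors' region score (vertical axis, scale not stated). The dashed line is the median score of the whole list, 42.8. The Mob1b region at the start site scores 117 and the Lats2 region scores 16.7.

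Promoter windows of 300 bases, from 250 before to 50 after the start, were available from RefSeq (build GRCm38.p6) for 7 of the 8 genes as 9 windows. Each was searched on both strands for GGAATG, the word that TEAD factors bind, and for the palindrome of NFI factors, which the study's title names, as TGGC and GCCA with any 5 bases between them. The TEAD word was in 3 of the 9 windows, beside 14.7% of 32851 windows of all genes, and the NFI palindrome was in 0 of 9, beside 0.807%. A match of letters is a description and not a bound site. The 4 windows below are those with a TEAD word and the Mob1b window, which lies wholly within the opened region at that gene. The TEAD word or its reverse complement is in capitals, and the Mob1b window holds none. Lats2 is read at chr14:57746074-57746373 on the minus strand, with the word 4 bases after the start. Sav1 is read at chr12:69986953-69987252 on the minus strand, with the word on the opposite strand 106 bases before the start, and Mob1a at chr6:83325789-83326088 on the plus strand, with the word on the opposite strand 209 bases before the start. Mob1b is read at chr5:88720621-88720920 on the plus strand.
Lats2: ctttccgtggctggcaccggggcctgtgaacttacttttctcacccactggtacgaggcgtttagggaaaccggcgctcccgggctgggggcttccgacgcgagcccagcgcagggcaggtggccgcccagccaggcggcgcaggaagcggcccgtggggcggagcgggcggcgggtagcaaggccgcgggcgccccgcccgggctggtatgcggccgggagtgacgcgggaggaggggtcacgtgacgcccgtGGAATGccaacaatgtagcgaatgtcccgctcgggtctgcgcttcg
Sav1: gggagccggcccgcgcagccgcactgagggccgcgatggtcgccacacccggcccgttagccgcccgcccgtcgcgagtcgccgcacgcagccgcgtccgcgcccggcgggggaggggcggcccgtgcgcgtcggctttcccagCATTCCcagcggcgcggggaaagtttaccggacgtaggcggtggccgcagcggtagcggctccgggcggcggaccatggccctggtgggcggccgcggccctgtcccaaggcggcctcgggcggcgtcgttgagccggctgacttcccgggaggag
Mob1a: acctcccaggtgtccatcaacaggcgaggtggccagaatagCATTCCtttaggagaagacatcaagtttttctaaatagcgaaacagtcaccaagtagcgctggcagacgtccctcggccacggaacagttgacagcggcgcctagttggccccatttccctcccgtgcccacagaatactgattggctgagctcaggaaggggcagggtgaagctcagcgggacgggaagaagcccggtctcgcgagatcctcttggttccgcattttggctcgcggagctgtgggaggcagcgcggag
Mob1b: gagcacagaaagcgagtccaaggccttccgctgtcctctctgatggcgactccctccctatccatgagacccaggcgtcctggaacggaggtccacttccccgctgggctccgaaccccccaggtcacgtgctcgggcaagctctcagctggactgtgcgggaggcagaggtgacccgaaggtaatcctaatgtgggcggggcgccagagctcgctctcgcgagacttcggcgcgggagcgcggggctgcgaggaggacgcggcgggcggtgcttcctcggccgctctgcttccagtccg

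These windows differ in base composition. Over the 9, GC content ran from 34.3% (a second Nf2 start) to 78.3% (Sav1), against a median of 52.7% over all windows. Sav1 held 50 CpG dinucleotides, Lats2 held 37, Mob1b 29 and Mob1a 19, against a median of 7. The genes with a TEAD word in the window had log2 fold changes of -0.21 (Lats2), -0.14 (Sav1) and -0.081 (Mob1a) in Yap active cells and of -0.43, -0.28 and 0.018 in Yap deleted cells.

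The authors' 4 broad-peak lists of the Yap active line, 2 from Yap active cells and 2 from controls, were set against the same windows. Peaks overlapped 6 of the 9 windows in Yap active list 1 and 2 of 9 in Yap active list 2, against 0 of 9 in each control list. Over all windows of the genome the shares were 30.2% and 15.0% in the Yap active lists and 5.59% and 3.73% in the control lists. Mob1b was the 1 gene whose window had a peak in both Yap active lists, with the authors' fold enrichment at 2.47 and 1.61. Lats1, Lats2, Sav1, Stk4 and Nf2 had one in list 1 (fold 2.22 to 2.76), and Mob1a had one in list 2 (fold 1.80). Those peaks are weak by the authors' own values. Their largest −log10 q was 0.320. None (0) reached 2, a level that 85 of 61739 peaks passed in list 1 and 10 of 53714 in list 2, so only presence in a list was read from them. Of the 4 opened regions above, 3 held a peak in list 1 (both Mob1b regions and Stk3) and 2 in list 2 (Mob1b at the start site and Stk3), against 0 in control list 1 and 2 in control list 2 (Mob1b at the start site and Lats2). Those regions were listed as more open in Yap active cells than in controls, so the tally follows in part from that choice and is a description. The share of all opened regions with a peak was not computed. The peak lists are of unequal length, with 345109 and 28418 peaks in the controls, and the sources used here do not say how many libraries entered each.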

How the data were processed

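The deposited RNA values are read counts of 23478 gene rows in each of 2 tables, one per line, as their whole numbers show. Genome build mm10 and the tools Trim Galore, Bowtie2, Cufflinks, DESeq and HOMER are named in the submitters' processing notes, without versions or roles, and the sources used here do not give the counting program. In the authors' region lists each region has a score, a gene and a distance from HOMER's annotatePeaks.pl, per the file headers. Each of the 4 regions named for core genes carried entries merged from 2 comparisons, which was not counted for the other regions. The 4 peak lists, as deposited, follow the broad-peak layout of MACS, with fold enrichment (a ratio) and −log10 q. Unused columns of sample values numbered 0, and 27 gene names had become dates.

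Scaling was by TMM and the filter on low counts filterByExpr, and counts were tested across all genes with edgeR 4.0.16 (robust quasi-likelihood, two-sided, called at a Benjamini-Hochberg adjusted p under 0.05) in R 4.3.3, one fit per table and one of all 19 libraries for the difference. CPM comes from those deposited counts. Fits were tested on simulated counts with 1 fixed spread for all genes and no split along component 1. That check therefore does not show which changes the fits could detect in these data. Alternatives used DESeq2 1.42.0, limma 3.58.1, other scaling and filters, the replicate number and single libraries left out. Fits without libraries that stood apart or with the end of component 1 as a covariate were chosen after seeing the data. Overlaps used bedtools 2.31.1 at 1 bp or more. The core genes, the lists and the tests were chosen with earlier results of these data known. Named beside them are Yap1, Wwtr1, Esr1, the 2 genes of each list with the largest change at 4 CPM or more in a line, and the 3 nearest profiles. No 2 replicates agreed within sampling noise over 37 pairs (lowest chi-square per gene 53.1). Of the pathway lists, Frmd1 and Stk26 are not analysed here.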

Additional observations from a re-analysis of the deposited data

Results flagged for a closer look

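In 4 of the 8 core genes the library labelled Yap active 1 stood far above the other 5 Yap active libraries: Stk3 at 51.1 CPM, Stk4 at 128 CPM, Lats1 at 165 CPM and Lats2 at 166 CPM. Its gap to the next library was 0.799, 0.708, 0.687 and 0.682 of the group's whole range in the same order, each above Dixon's 95% critical value for 6 samples. The same library had 2.03 CPM of Esr1, and it lay with active controls 1 to 3 on component 1. Among the 4 active controls, Sav1 was far lowest in control 4, at 67.1 CPM, with a gap of 0.909 of the range, above the critical value for 4 samples. That control lay with Yap active 2 to 6 on component 1. These are 5 cases among 32 gene and group combinations, and 4 of the 5 come from 1 library. Chance gives about 1 in 20 for a single combination. Because these combinations share libraries, the 5 cases cannot be set against that rate. What sets these libraries apart was not tested.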

How the results depend on the processing

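No core gene was called under any alternative but one. Between Yap active cells and controls, edgeR called 0 genes, DESeq2 19, limma-voom 8871 (6 of them core genes), the fit without Yap active 1 and active control 2 called 13, and that fit with the end of component 1 as a covariate 4. The last of these sets Yap active 2 to 6 against active control 4 alone, which is assumed to vary like the others. In the Yap deleted line edgeR called 1 gene, DESeq2 792, limma-voom 0 and library-size scaling 2. For the difference between lines the counts were 0, 18 by DESeq2 and 21 by limma-voom. Leaving out single libraries gave 0 to 2, 0 to 4 and 0 to 3 genes in the 3 comparisons, and 0 core genes throughout. Of the 4 core regions, 2 remained in the higher-scoring 50% of the list. Peaks covered no core region by 50%.

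Signs of small changes turned. With the component covariate in the Yap active line, Sav1 was 0.053, Lats1 0.040, Lats2 0.094 and Mob1a 0.0039, and Sav1 was 0.085 when Yap active 1 and active control 2 were also left out. In the Yap deleted line Mob1a was -0.0098 with RLE scaling, -0.010 by DESeq2 and without control 2, and -0.051 by library size, Mob1b was 0.0026 with no filter, and Stk3 was 0.18 without controls 1 and 2. For the difference, Nf2 was -0.029 with no filter and -0.060 by library size, and Lats2 was -0.11 by limma-voom. Without the 3 libraries of contrary Esr1, the differences were -0.048 for Stk4, -0.064 for Lats2 and 0.098 for Mob1b, and without deleted control 1 too they were -0.26, -0.27 and 0.0067, with Sav1 at -0.19. Leaving out single libraries gave -0.13 to 0.0043 for Mob1b in the Yap active line, and in the Yap deleted line -0.21 to 0.035 for Lats1, -0.061 to 0.13 for Mob1a and -0.15 to 0.095 for Mob1b. For the difference it gave -0.33 to 0.027 for Stk3, -0.021 to 0.21 for Stk4, -0.23 to 0.0097 for Lats1, -0.17 to 0.082 for Mob1b and -0.063 to 0.077 for Nf2. What turned these signs was not tested.

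Same-numbered libraries deviated together only in part (correlations of 0.55, 0.03, 0.06 and 0.53 in the Yap active line and -0.26, 0.47, 0.19 and 0.34 in the other), so the numbers were not taken to pair libraries. With the number as a replicate block, 0 genes were called in each comparison, Stk3 was -0.34 and Stk4 -0.21 in the Yap active line, Mob1b was 0.032 in the Yap deleted line, and the Lats1 difference was 0.019.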
